A study of Mus musculus with 18 samples.

Results

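The response of a mouse macrophage line to 12 h of bacterial lipopolysaccharide was measured by RNA sequencing and set against cells that were left untreated. The comparison takes 6 of 18 libraries: the 3 libraries of RAW 264.7 cells given LPS alone and the 3 of the control, chosen by the treatment in their labels. RAW 264.7 is an immortalized line, so all groups share 1 genetic background that can drift with passage. LPS from *Escherichia coli* O127:B8 was given at 0.1 µg/mL for 12 h, and control cells received no further treatment after seeding. By the study's design the control cells were kept in medium alone over the same period. The study asked how the antioxidant food additive tert-butylhydroquinone (TBHQ) alters macrophage activation, and the other 12 libraries hold cells given TBHQ, poly(I:C), a mimic of viral double-stranded RNA (PIC, 20 µg/mL for 12 h), or TBHQ before either stimulus. Of these, only the 3 PIC libraries are compared here. The libraries were made from polyadenylated RNA. The control libraries held 14599770, 15410984 and 15932183 counts on genes against 14423390, 14432272 and 14502107 with LPS. The study calls the 3 libraries of a group biological replicates of cells of 1 line seeded in plates. Whether they came from separate cultures is not stated, so the p-values below measure only the spread between these samples, which may be technical.

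LPS is an outer membrane component of Gram-negative bacteria. CD14 and MD-2 present it to the receptor TLR4, which signals through the adaptors MyD88 and TRIF to NF-kB, MAP kinases and interferon regulatory factors. Macrophages then secrete cytokines and chemokines, make nitric oxide and prostaglandins, and switch on inhibitors that restrain the same pathway.

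The label was checked against cell type markers, with levels as the FPKM that the authors deposited. These are counts scaled by gene length, library depth and a further factor per library. That factor was 0.9428 to 0.9511 in the control and 1.005 to 1.0149 with LPS, so it lifts all FPKM with LPS slightly. All but 1 of the 18 macrophage markers and lineage factors exceeded 3 counts in a library, the exception being *Mertk*. Their summed level was 7184, 7345 and 6937 FPKM in control replicates 1 to 3 and 6014, 5922 and 6171 FPKM in LPS replicates 1 to 3, and *Lyz2* was the most abundant of them. The difference moved with *Lyz2* itself (from 4601, 4647 and 4345 FPKM to 3709, 3589.7 and 3765 FPKM). In bulk libraries, fewer cells of a type and less RNA per cell cannot be told apart. All 10 T and NK cell markers stayed at or under 3 counts in all 6 libraries, and *Cd3e*, *Cd3g*, *Cd8a*, *Ncr1*, *Klrb1c* and *Nkg7* were at 0. Among 6 B cell markers, *Cd79b* and *Ms4a1* were at 0. The most abundant was *Blnk*, a signalling adaptor that macrophages also use, and the list summed to 5.16, 5.33 and 5.61 FPKM in the control and 9.22, 8.84 and 9.59 FPKM with LPS. The 8 neutrophil markers summed to 1.08, 1.151 and 1.01 FPKM against 4.05, 4.72 and 3.61 FPKM, with *S100a8* most abundant and *Ly6g*, *S100a9* and *Retnlg* at 0. The 14 fibroblast, epithelial and endothelial markers summed to at most 0.267 FPKM in any library, 7 of them were at 0, and *Kdr* was the most abundant. Mitochondrial genes took 2.03, 2.17 and 2.18% of counts in the control and 1.68, 1.87 and 1.67% with LPS.

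With LPS, most tested genes rose in the lists of chemokines, cytokines, inhibitors of inflammatory signalling, interferon-stimulated genes and ATF4 targets, and most fell in those of mitosis, DNA replication, fatty acid synthesis with LXR targets, and the respiratory chain. Among genes with a mean of at least 50 counts and no overlap between the groups, the 15 largest increases include secreted signals (*Il1b*, *Csf3*, *Il1a*, *Edn1*, *Ccl22*, *Ccl5*, *Ccl7*, *Lif*) beside genes of other kinds (*Serpinb2*, *Urah*, *Zfp811*, *Col5a3*, *Upp1*, *Mmp14*, *Lix1*), and the 15 largest decreases include 4 genes of the mitosis and G2/M list (*Plk1*, *Cenpa*, *Cenpf*, *Cdc20*). Increases reached further than decreases. At a false discovery rate (FDR, edgeR quasi-likelihood test with Benjamini-Hochberg adjustment over all 13691 genes tested) below 0.05, 3283 genes were higher and 3306 lower with LPS, which is 24.0% and 24.1% of the genes tested and 48.1% together. The counts of higher and lower genes in each list below are to be read beside these shares. Lists and their members were chosen with earlier results of these data known. With libraries scaled by total count (total library size) in place of TMM, 2454 genes were higher and 4558 lower, so the share of higher calls was 35.0% in place of 49.8%, and the median log2 fold change (log2FC) of all genes moved from −0.004 to −0.09.

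Most of these changes were small. The median size of the log2FC was 0.436 among higher and 0.356 among lower genes, and 55.7% and 67.3% of them stayed below 0.5. A log2FC above 1 was reached by 676 higher and 346 lower genes, above 3 by 89 and 3, and above 5 by 26 higher genes and no lower one. These are fitted values, which for genes nearly unread in the control depend on the prior count of the fit. Under the stricter limit (FDR below 0.01, |log2FC| above 2), the 184 higher and 40 lower genes are 1.34% and 0.292% of those tested. The 184 took 0.318, 0.291 and 0.292% of all counts in the control libraries and 2.43, 2.34 and 2.22% with LPS. The 40 took 0.131, 0.132 and 0.129% against 0.0238, 0.0263 and 0.0270%. Many of the 184 were barely read in the control, where 10 had no count in any library and 55 had at most 3 counts in each. The 3 LPS and 3 control libraries did not overlap for 7370 genes (53.8% of those tested), among them 183 of the 184 and all 40. Among genes with an FDR below 0.05, they did not overlap for 3106 of the 3283 higher and 3120 of the 3306 lower. A lack of overlap in a called gene named below therefore adds little to its call.

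**Figure D1:**
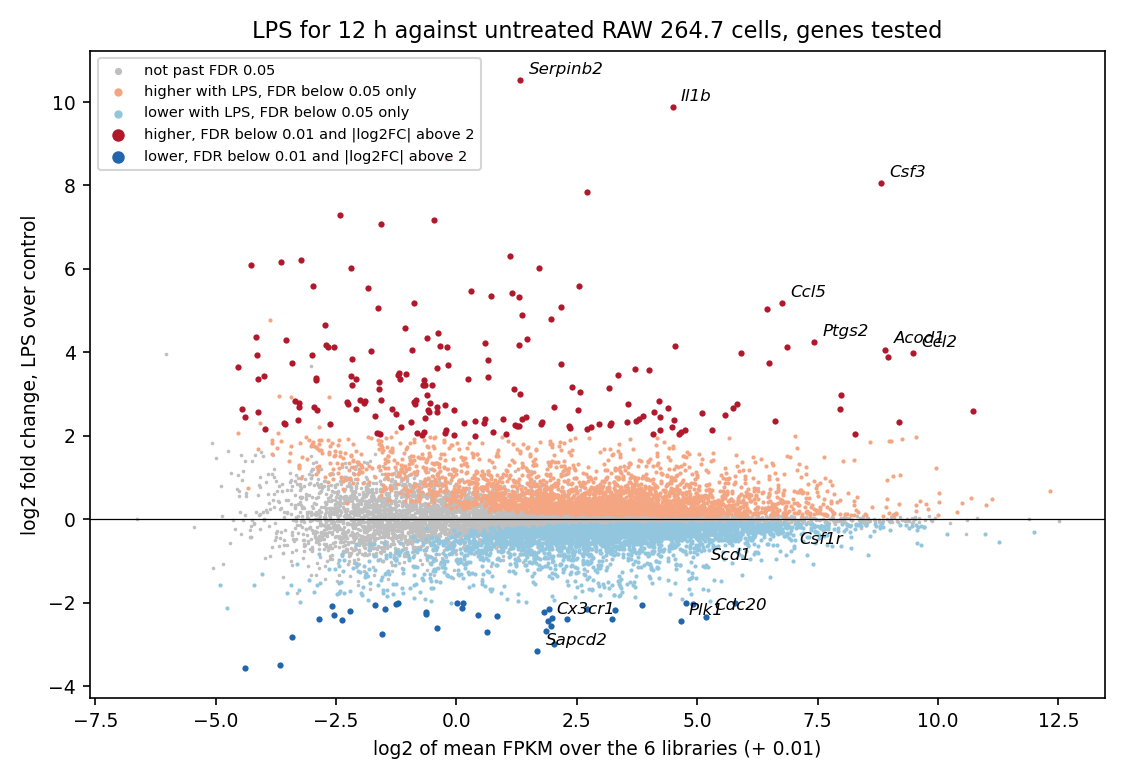
Each point is 1 of the 13691 genes tested, with the log2 of its mean FPKM over the 6 libraries (+ 0.01) on the x axis and the log2FC of LPS over control on the y axis. Dark points mark the 184 higher and 40 lower genes at the stricter limit, light points the other genes with an FDR below 0.05, and grey points the remaining 7102. Fitted increases reach 10.52, for *Serpinb2*, which was unread in the control, and decreases −3.57.

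By fitted log2FC, the 15 largest increases just defined began with *Serpinb2*, *Il1b*, *Csf3* and *Il1a*. *Serpinb2*, an inhibitor of plasminogen activators, had no count in any control library and 182, 178 and 142 counts with LPS, at least 62.7-fold above a floor of 3 counts per library, although 10.4% of its sequence also occurs in another gene. *Il1b*, the precursor of a fever-inducing cytokine, went from 1, 2 and 1 counts to 1444, 1144 and 1079 counts, a ratio of 1030.0 (95% counting interval 403 to 3790.0). These intervals and floors cover counting error only. *Csf3*, the growth factor G-CSF that drives neutrophil production, was at 5.58, 2.35 and 2.26 FPKM in the control libraries and at 927, 865 and 903 FPKM with LPS. Its log2FC was 8.06 ± 0.42 (SE of the replicate values, n = 3 and 3, edgeR FDR = 5.61e-37), and it took 0.129, 0.122 and 0.126% of all counts with LPS. *Il1a*, which encodes the other interleukin 1 agonist, had 1, 1 and 3 counts against 447, 391 and 257, a ratio of 247 (95% counting interval 105 to 761), or 402 (111 to 3320) without control replicate 3. These genes, and the 15 largest decreases, were chosen among those without overlap between the groups, so their separation is not a result.

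*Edn1*, the vasoconstrictor endothelin 1, followed at 0.122, 0.0574 and 0.111 FPKM in the control and 7.01, 6.77 and 5.69 FPKM in the LPS libraries (log2FC 6.01 ± 0.22, FDR = 2.05e-21). *Urah*, an enzyme of urate breakdown, was at 0.0457, 0.301 and 0.332 FPKM in the control and 12.5, 10.004 and 11.7 FPKM in the LPS libraries (5.59 ± 0.54, FDR = 1.27e-20). Its control replicate 1 held 1 count against 7 and 8 in the other controls, still under the lowest LPS count of 205. *Zfp811*, a zinc finger protein, had 4, 5 and 8 counts in the control and 247, 206 and 209 counts with LPS (log2FC 5.42 ± 0.21, FDR = 7e-19). The fibrillar collagen gene *Col5a3* had 0, 6 and 3 counts against 99, 97 and 106 (log2FC 5.18 ± 0.58, FDR = 3.83e-15), and its log2FC without control replicate 2 was 6.12. *Upp1*, uridine phosphorylase, was at 0.133, 0.313 and 0.302 FPKM in the control and 10.5, 8.24 and 7.63 FPKM in the LPS libraries (log2FC 5.10 ± 0.33, FDR = 3.84e-20). *Mmp14*, a membrane-bound matrix protease, had 6, 5 and 6 counts against 97, 108 and 109 (4.35 ± 0.09, FDR = 7.15e-18), and *Lix1* had 11, 13 and 19 against 266, 307 and 200 (4.33 ± 0.25, FDR = 1.09e-19), with 14.4% of its sequence shared. *Cstdc4*, of the stefin family of protease inhibitors, went from no count in the control to 66, 37 and 34 counts, at least 17.1-fold, with 11% shared sequence.

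The 15 largest decreases were chosen in the same way, and 4 of them are in the list of mitosis and G2/M. *Sapcd2*, which acts in spindle orientation, fell from 5.77, 6.44 and 5.04 FPKM to 0.523, 0.577 and 0.839 FPKM (log2FC −3.15 ± 0.22, FDR = 8.34e-18). The DNA helicase gene *Pif1* was at 7.36, 7.85 and 6.59 FPKM in the control and 0.754, 0.841 and 1.147 FPKM in the LPS libraries (−2.995 ± 0.19, FDR = 1.34e-21). *Fam83d*, a spindle protein, was at 2.63, 2.61 and 2.83 FPKM in the control and 0.406, 0.349 and 0.491 FPKM in the LPS libraries (−2.70 ± 0.14, FDR = 2.88e-14). *Aspm*, a protein of the spindle poles, was at 6.34, 6.14 and 6.22 FPKM in the control and 0.868, 0.985 and 1.09 FPKM in the LPS libraries (−2.67 ± 0.10, FDR = 1.05e-25). *Depdc1a* (−2.55, 60.8% shared sequence), *Depdc1b* (−2.31), *Arhgef39* (−2.40), *Cdkn3* (−2.23) and *Prr11* (−2.18) also fell, at FDRs of 3.03e-16, 1.79e-11, 4.81e-17, 2.43e-13 and 1.28e-21. Also among the 15 were *Cx3cr1*, the fractalkine receptor, and *Neurl1b*, a ubiquitin ligase of Notch signalling at 2.51, 2.06 and 2.20 FPKM in the control and 0.389, 0.495 and 0.508 FPKM in the LPS libraries (−2.28 ± 0.15, FDR = 3.71e-15).

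Of 22 genes of the LPS receptor and its proximal adaptors, 21 were tested, 8 rose, 2 fell and 11 did not pass, so 10 of 21 were called against 48.1% of all genes, with a median log2FC of 0.06 against −0.004 over all genes. This median turned to −0.03 with total library size (7 higher, 6 lower), and was 0.03 without control replicate 1, 0.11 without control replicate 3 and 0.11 without LPS replicate 3. The receptor *Tlr4* itself was at 15.5, 18.2 and 18.4 FPKM in the control and 15.9, 18.2 and 16.2 FPKM in the LPS libraries, a log2FC of −0.06 ± 0.10 (FDR = 0.466), and the adaptor *Myd88* at 30.4, 30.3 and 30.9 FPKM in the control and 31.9, 29.1 and 32.7 FPKM in the LPS libraries (0.02 ± 0.05, FDR = 0.724). The coreceptor *Cd14* rose from 840.5, 810.2 and 778 FPKM to 1276, 1194 and 1309 FPKM (log2FC 0.63 ± 0.05, FDR = 9.22e-18), with no overlap. *Ly96*, which encodes MD-2, had a log2FC of 0.31 ± 0.14 (FDR = 0.0172) that did not pass with total library size (0.22, FDR = 0.0881) or without control replicate 1 (0.29), control replicate 2 (0.28), LPS replicate 2 (0.23) or LPS replicate 3 (0.29).

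Below the receptor, the largest rise was that of *Irak3*, a kinase-like protein that inhibits signalling, from 4.61, 4.29 and 3.99 FPKM to 14.1, 14.3 and 13.03 FPKM (1.68 ± 0.07, FDR = 5.79e-21). The kinase *Irak2* rose from 10.8, 10.3 and 10.6 FPKM to 20.7, 20.1 and 21.5 FPKM (0.97 ± 0.03, FDR = 1.28e-16), and *Ticam1*, which encodes TRIF, from 14.2, 12.3 and 13.1 FPKM to 27.0, 23.8 and 24.4 FPKM (0.92 ± 0.08, FDR = 4.93e-16). Their groups did not overlap. The ubiquitin ligase *Traf6* (0.34 ± 0.06, FDR = 4.42e-05), the sorting adaptor *Tirap* (0.30 ± 0.07, FDR = 0.00109) and the ubiquitin ligase *Peli1* (0.26 ± 0.06, FDR = 2.47e-05) also rose. *Tab1*, an activator of the kinase TAK1, fell from 7.15, 8.04 and 7.57 FPKM to 6.20, 5.91 and 5.203 FPKM (−0.40 ± 0.09, FDR = 0.000326), and *Ly86*, the partner of the TLR4-like receptor CD180, from 7.28, 7.69 and 7.25 FPKM to 5.77, 6.40 and 5.74 FPKM (−0.32 ± 0.06, FDR = 0.00135). Values that did not pass were log2FCs of 0.03 for *Cd180*, 0.01 for *Ticam2*, −0.10 for *Irak1*, −0.06 for *Irak4*, −0.09 for *Traf3*, −0.12 for *Map3k7*, 0.08 for *Tab2*, 0.14 for *Tab3* and 0.06 for *Ripk1*. *Lbp*, the carrier of LPS in serum, was too low to test.

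Other microbial sensors moved in both directions. Of 18 tested among 19 listed Toll-like and nucleic acid receptors, 8 rose and 5 fell (median 0.13), or 7 and 5 (median 0.05) with total library size. The muramyl peptide sensor *Nod2* rose from 1.83, 1.43 and 1.76 FPKM to 3.99, 3.76 and 3.79 FPKM (1.19 ± 0.11, FDR = 1.63e-10) and its kinase *Ripk2* from 10.7, 10.9 and 11.8 FPKM to 26.3, 24.1 and 23.04 FPKM (1.13 ± 0.07, FDR = 5.85e-19). *Nod1* rose from 4, 4 and 6 counts to 13, 11 and 20 counts (1.80 ± 0.26, FDR = 0.00147). Of the endosomal receptors for nucleic acids, these fell: *Tlr8* from 0.581, 0.548 and 0.611 FPKM to 0.0589, 0.117 and 0.0780 FPKM (−2.75 ± 0.21, FDR = 8.87e-07), *Tlr7* from 27.4, 28.0 and 28.8 FPKM to 20.5, 21.4 and 20.7 FPKM (−0.43 ± 0.03, FDR = 3.51e-10) and *Tlr9* from 1.72, 1.96 and 1.85 FPKM to 1.153, 1.14 and 1.35 FPKM (−0.61 ± 0.09, FDR = 0.00627). The cytosolic DNA sensor *Cgas* fell from 13.7, 13.9 and 14.4 FPKM to 8.75, 9.64 and 9.73 FPKM (−0.59 ± 0.06, FDR = 1.08e-09). The groups did not overlap in any gene named so far here. The endosomal *Tlr3* (0.18) and *Tlr13* (0.02) did not pass.

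NF-kB genes rose in most cases, by modest amounts. All 18 of the listed subunits, inhibitors and kinases were tested, 14 rose and only *Map3k14*, the kinase NIK of the noncanonical pathway, fell (from 2.91, 2.64 and 2.94 FPKM to 2.41, 2.35 and 1.90 FPKM, −0.36 ± 0.12, FDR = 0.00148), giving a median of 0.46. *Nfkbiz*, an atypical nuclear IkB protein that activates secondary response genes, rose from 7.70, 6.43 and 6.80 FPKM to 32.0, 29.4 and 30.6 FPKM (2.13 ± 0.08, FDR = 3.11e-27) and was alone in the list past the stricter limit. *Ikbke*, a kinase of the interferon branch, rose from 5.43, 4.37 and 4.61 FPKM to 14.8, 13.7 and 14.02 FPKM (1.56 ± 0.10, FDR = 2.87e-23). *Nfkbia*, which encodes the inhibitor IkBα, rose from 54.8, 53.9 and 49.6 FPKM to 138, 129 and 139 FPKM (1.35 ± 0.06, FDR = 1.35e-24). The precursor subunits *Nfkb2* (from 15.7, 16.7 and 16.3 FPKM to 26.5, 27.8 and 28.5 FPKM, 0.76 ± 0.04, FDR = 2.7e-16) and *Nfkb1* (from 13.5, 12.2 and 12.1 FPKM to 19.5, 17.8 and 18.7 FPKM, 0.56 ± 0.06, FDR = 3.2e-14) rose without overlap, while *Chuk* (−0.02), *Ikbkb* (−0.08) and *Nfkbie* (0.10) did not pass.

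Most inhibitors of inflammatory signalling rose. Of 26 listed and tested, 20 rose, 6 of these past the stricter limit, and 1 fell, with a median of 1.21. *Socs3*, which blocks cytokine receptor kinases, rose from 2.43, 2.42 and 2.52 FPKM to 44.5, 41.7 and 45.2 FPKM (4.15 ± 0.04, FDR = 7.77e-34). *Il1rn*, the interleukin 1 receptor antagonist, rose from 58.5, 56.3 and 55.0 FPKM to 463, 455 and 432 FPKM (2.98 ± 0.04, FDR = 2.13e-37), and the MAP kinase phosphatase *Dusp5* from 4.61, 4.76 and 4.21 FPKM to 34.3, 30.6 and 33.0 FPKM (2.84 ± 0.07, FDR = 2.7e-27). *Cish*, of the same family as *Socs3*, had 2, 1 and 0 counts against 32, 23 and 20, a ratio of 28.2 (95% counting interval 9.27 to 140.0). Without control replicate 1 the ratio was 57.8 (10.1 to 2310), and without control replicate 3 it was 18.3 (6.04 to 91.0). *Tnfaip3*, the ubiquitin-editing enzyme A20, was chosen after its values were seen and rose from 5.17, 4.99 and 5.08 FPKM to 20.2, 18.9 and 18.6 FPKM (1.92 ± 0.04, FDR = 5.44e-28). The mRNA decay factor *Zfp36l1* fell from 2.53, 2.59 and 2.28 FPKM to 1.72, 1.61 and 1.61 FPKM (−0.59 ± 0.06, FDR = 0.00511), and *Socs1* (0.51) and the deubiquitinase *Cyld* (−0.11) were among 5 that did not pass.

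Chemokines gave the highest median of the lists with over 2 genes tested. All 14 tested among 22 listed rose, 9 of them past the stricter limit, with a median of 3.63. It was 3.04 with genes unread in every control library set to their bound. Genes with a few control counts, such as *Ccl12*, kept their fitted value in it. Members nearly unread in the control, such as *Cxcl3* and *Ccl12*, passed the count filter only through other libraries. Such members could hardly fall, so their rise is not independent of the filter. The 22 took 0.161, 0.159 and 0.150% of all counts in the control and 0.936, 0.976 and 0.845% with LPS. *Ccl3*, an attractant of monocytes that was among the 10 highest genes with LPS, rose from 496, 482 and 475 FPKM to 3024, 3167 and 2609 FPKM (2.59 ± 0.09, FDR = 1.3e-30). *Ccl2*, the main monocyte attractant, rose from 92.4, 84.0 and 75.2 FPKM to 1394, 1321 and 1302 FPKM (3.99 ± 0.09, FDR = 1.51e-37), and *Cxcl2*, which attracts neutrophils, from 72.7, 55.0 and 58.5 FPKM to 975, 1029 and 790.0 FPKM (3.90 ± 0.17, FDR = 1.23e-30). *Ccl5*, an attractant of T cells and monocytes, rose from 6.99, 4.73 and 5.67 FPKM to 218, 203 and 211 FPKM (5.18 ± 0.16, FDR = 1.54e-33). *Ccl7* rose from 5.86, 5.67 and 3.99 FPKM to 167, 173 and 167 FPKM (5.03 ± 0.17, FDR = 8.38e-32), and *Ccl22*, a ligand of CCR4, from 3, 3 and 7 counts to 151, 170 and 157 counts (5.33 ± 0.26, FDR = 1.12e-19). None of these genes overlapped.

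Some chemokines started near or below detection. *Cxcl3* had no count in the control and 19, 20 and 14 counts with LPS, at least 6.62-fold, and *Ccl12* had 3, 0 and 1 counts against 43, 43 and 29, a ratio of 32.4 (95% counting interval 12.3 to 121). The ratio of *Ccl12* was 88.6 (15.6 to 3530) without control replicate 1 and 21.5 (8.18 to 80.3) without control replicate 2. The interferon-inducible *Cxcl10* rose only from 3.99, 3.30 and 3.10 FPKM to 5.78, 5.81 and 4.97 FPKM (0.67 ± 0.13, FDR = 1.46e-06). *Cxcl1*, *Cxcl5*, *Cxcl9*, *Cxcl14*, *Ccl8*, *Ccl17*, *Ccl20* and *Ccl24* were too low to test.

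**Figure D2:**
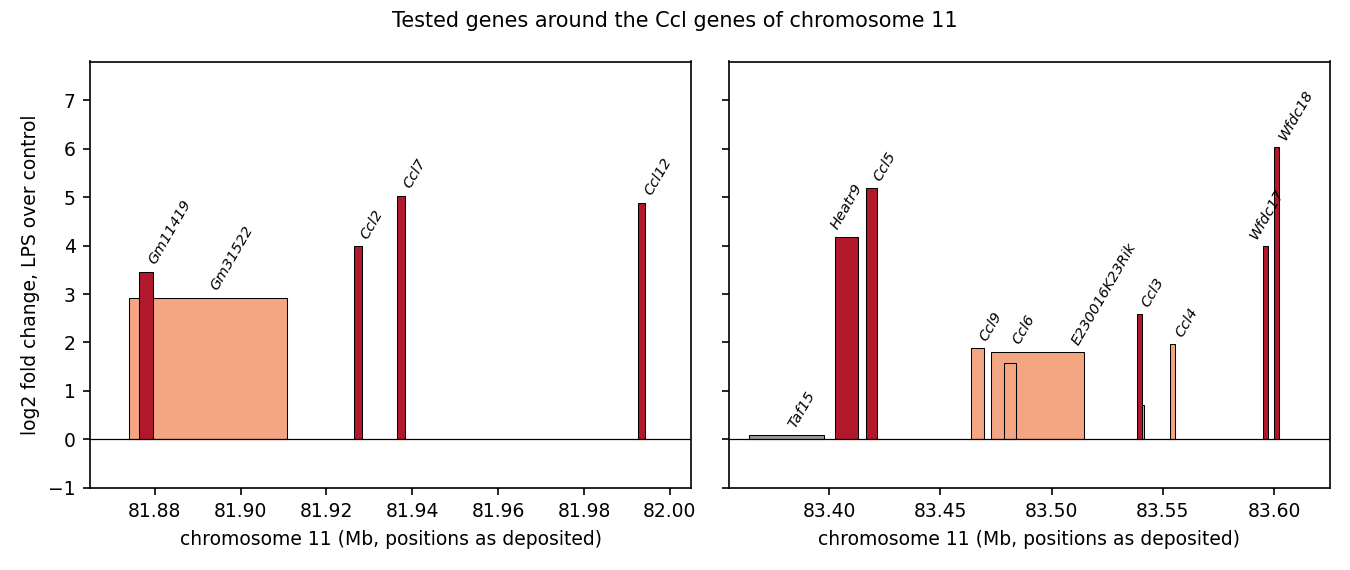
Tested genes in 2 windows of chromosome 11, with the position in Mb as deposited on the x axis and the log2FC of LPS over control on the y axis; each bar spans a gene. Dark bars passed the stricter limit, light bars an FDR below 0.05, and grey bars did not pass. *Ccl2* and *Ccl7* stand at 3.99 and 5.03, and *Ccl5*, *Ccl9*, *Ccl6*, *Ccl3* and *Ccl4* at 5.18, 1.88, 1.57, 2.59 and 1.97. Bars of genes with at most 3 counts in each control library, such as *Ccl12*, *Heatr9* and *Wfdc18*, depend on the prior count of the fit.

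Of the 184 genes higher at the stricter limit, 51 (27.7%) had another of them within 100 kb, in 23 runs, some of which join a gene to an adjacent predicted or noncoding transcript. None of the 40 lower genes had another of the 40 so near, and 92.3% of all tested genes had another tested gene. What share chance would give was not tested. Positions are as deposited, and the processing notes name both GRCm38 and mm39. On chromosome 11, *Ccl2* (chr11:81926397-81928279), *Ccl7* (chr11:81936538-81938351) and *Ccl12* (chr11:81992671-81994226) lay in a run of 4, and all 5 genes tested in its span rose. *Ccl3* (chr11:83538670-83540181) lay with *Wfdc17* (log2FC 3.99) and *Wfdc18*, and *Ccl5* (chr11:83416604-83421344) beside *Heatr9*. Other runs paired *Il1a* (chr2:129141530-129151892) with *Il1b* (chr2:129206490-129213059), *Fpr1* with *Fpr2* and *Mmp9* with *Cd40*. *Ptgs2* (chr1:149975782-149983978) was paired with its antisense transcript *Ptgs2os*, but the pair is uncertain: the study describes libraries that keep strand, the labels name directional and non-directional preparation, and whether the counting used strand is not stated.

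Most cytokines and growth factors that could be tested rose. Of 24 tested among 31 listed, 21 rose, 11 past the stricter limit, and none fell, with a median of 1.64. It was 1.4975 with genes unread in every control library set to their bound, while *Il1b* and *Il1a* kept their fitted values. Here too, *Il1b*, *Il1a* and *Csf2* were nearly unread in the control and passed the count filter only through other libraries. For these genes a rise is not independent of the filter. Beside *Il1b*, *Csf3* and *Il1a*, *Csf2*, which encodes GM-CSF, went from no count to 17, 14 and 18 counts, at least 6.12-fold. *Lif*, a cytokine of the interleukin 6 family, rose from 0.315, 0.198 and 0.286 FPKM to 9.03, 6.95 and 6.54 FPKM (4.81 ± 0.23, FDR = 3.85e-24). *Il6* rose from 0.402, 0.581 and 0.414 FPKM to 4.12, 4.39 and 3.83 FPKM (3.12 ± 0.16, FDR = 3.14e-17). *Tnf*, the central early cytokine of the response, was high before treatment and rose from 132, 118 and 111 FPKM to 510.4, 492 and 489 FPKM (2.04 ± 0.08, FDR = 9.04e-30). No library overlapped between the groups in these genes. *Il23a* (0.84), *Tnfsf15* (1.47) and *Gdf15* (0.55) did not pass, and *Il10*, *Il12a*, *Il12b*, *Il19*, *Il33*, *Ifnb1* and *Areg* were too low to test.

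**Figure D3:**
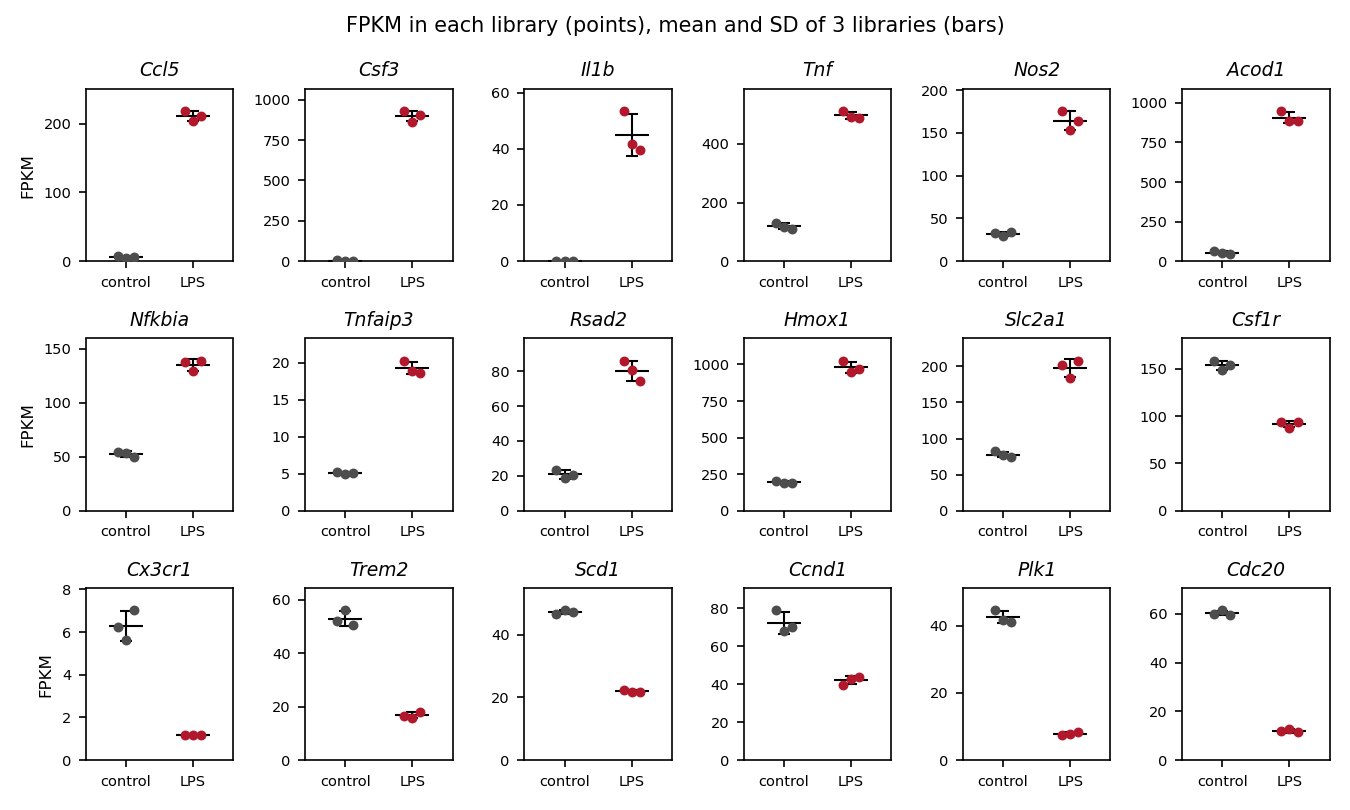
FPKM (y axis, from 0) of 18 genes in each of the 3 control (grey) and 3 LPS (red) libraries, with bars for the mean and SD of 3 libraries. In every panel the groups lie apart, with 11 genes higher and *Csf1r*, *Cx3cr1*, *Trem2*, *Scd1*, *Ccnd1*, *Plk1* and *Cdc20* lower with LPS. All 18 were picked among genes with an FDR below 0.05, so their separation is not a result.

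Receptors for cytokines moved both ways. Of 24 tested among 28 listed, 9 rose and 6 fell, and the median of 0.05 turned to −0.04 with total library size (8 higher, 9 lower) and was 0.03 without LPS replicate 1. *Tnfrsf1b*, the TNF receptor 2, rose from 13.002, 12.2 and 12.0 FPKM to 178, 159 and 169 FPKM (3.76 ± 0.06, FDR = 5.07e-37). The interleukin 4 receptor *Il4ra* (from 0.326, 0.286 and 0.207 FPKM to 1.18, 0.812 and 1.25 FPKM, 1.98 ± 0.26, FDR = 3.5e-09), the interleukin 10 receptor *Il10ra* (from 1.79, 1.61 and 1.88 FPKM to 4.41, 4.56 and 4.32 FPKM, 1.32 ± 0.07, FDR = 1.84e-09) and the interleukin 18 trap *Il18bp* (from 0.689, 0.548 and 0.469 FPKM to 1.02, 1.20 and 1.41 FPKM, 1.08 ± 0.20, FDR = 0.00121) rose at low levels. *Csf1r*, the receptor of the growth factor on which macrophages depend, fell from 158, 149 and 154 FPKM to 93.5, 87.8 and 93.8 FPKM (−0.75 ± 0.04, FDR = 1.03e-18). The interleukin 6 receptor *Il6ra* fell from 6.64, 5.92 and 6.38 FPKM to 3.67, 3.75 and 3.69 FPKM (−0.78 ± 0.05, FDR = 1.7e-12), *Tgfbr2* from 20.8, 20.9 and 21.4 FPKM to 15.3, 14.2 and 15.1 FPKM (−0.51 ± 0.03, FDR = 2.51e-13) and *Ifngr1*, of the interferon gamma receptor, from 9.82, 10.9 and 9.79 FPKM to 6.97, 8.71 and 7.25 FPKM (−0.42 ± 0.11, FDR = 0.00049). Both interferon alpha/beta receptor genes, *Ifnar1* (−0.04) and *Ifnar2* (−0.06), did not pass.

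Among chemoattractant and purine receptors, 15 of 24 tested (30 listed) rose and 3 fell (median 0.76). The adenosine receptor *Adora2b* rose from 2.01, 2.20 and 1.28 FPKM to 8.43, 8.61 and 8.03 FPKM (2.19 ± 0.23, FDR = 1.06e-14), and *Ccrl2*, an atypical receptor that presents chemerin, from 2.11, 2.65 and 2.03 FPKM to 8.67, 9.25 and 8.45 FPKM (1.95 ± 0.12, FDR = 3.54e-19). The formyl peptide receptors were scarcely read, *Fpr1* at 1, 0 and 2 counts against 8, 6 and 6 with a ratio of 7.51 (95% counting interval 2.23 to 39.5) and *Fpr2* at 2, 2 and 0 against 22, 9 and 13 with a ratio of 12.4 (95% counting interval 4.51 to 47.5) and 31.5% shared sequence. The ratio of *Fpr1* was 14.7 (2.35 to 608) without control replicate 3 and 4.99 (1.48 to 26.2) without control replicate 2, and that of *Fpr2* 8.07 (2.94 to 30.9) without control replicate 3. *Cx3cr1* fell from 6.23, 5.63 and 7.01 FPKM to 1.19, 1.17 and 1.16 FPKM (−2.43 ± 0.09, FDR = 1.39e-18), without overlap. *Cxcr4*, the receptor of CXCL12, fell from 12, 13 and 18 counts to 2, 3 and 4 counts (−2.04 ± 0.22, FDR = 0.00138), and the ATP-gated channel *P2rx7* from 3.40, 4.39 and 4.08 FPKM to 3.16, 3.22 and 3.01 FPKM (−0.35 ± 0.11, FDR = 0.00112). *Ccr1* (0.05) and *Ccr2* (0.11) did not pass.

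Interferon-stimulated genes rose almost throughout. All 50 were tested, 45 rose, 4 of them past the stricter limit, and none fell, with a median of 0.71. Of all genes tested, 24.0% rose. The GTPases *Gbp2* (from 1.81, 1.81 and 1.86 FPKM to 15.1, 16.1 and 17.3 FPKM, 3.14 ± 0.06, FDR = 2.84e-21) and *Gbp3* (from 4.93, 4.12 and 3.86 FPKM to 21.3, 22.1 and 23.3 FPKM, 2.37 ± 0.11, FDR = 1.3e-24) defend against intracellular microbes. *Zbp1*, a sensor of Z-form nucleic acids, rose from 5.48, 4.45 and 4.85 FPKM to 31.2, 28.5 and 28.4 FPKM (2.57 ± 0.10, FDR = 7.55e-28), and the exonuclease *Isg20* from 5.95, 5.84 and 5.38 FPKM to 34.1, 27.9 and 32.6 FPKM (2.45 ± 0.10, FDR = 2.51e-22). *Rsad2*, the antiviral enzyme viperin, was named after its values were seen and rose from 23.6, 18.7 and 20.3 FPKM to 85.9, 80.8 and 74.6 FPKM (1.94 ± 0.11, FDR = 3e-25). No library overlapped in these genes. *Mx1* (0.60), *Ifi47* (0.11), *Iigp1* (−1.38), *Ifi205* (1.20) and *Ifit1bl1* (0.24) did not pass.

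Of 18 tested among 20 listed IRF and STAT factors and their kinases, 11 rose and 2 fell (median 0.29). *Irf7*, which amplifies interferon production, rose from 61.1, 62.5 and 57.1 FPKM to 178, 164 and 177 FPKM (1.51 ± 0.05, FDR = 2.04e-27), *Jak2* from 7.45, 8.53 and 7.84 FPKM to 12.97, 14.1 and 13.6 FPKM (0.76 ± 0.07, FDR = 2.6e-14) and *Stat2*, a subunit of the interferon-activated complex ISGF3, from 13.6, 13.1 and 14.3 FPKM to 22.2, 19.8 and 19.7 FPKM (0.58 ± 0.07, FDR = 5.09e-12). *Irf2*, an antagonist of IRF1, fell from 4.75, 4.43 and 4.90 FPKM to 3.04, 3.22 and 3.16 FPKM (−0.59 ± 0.05, FDR = 1.22e-08). These groups did not overlap. *Irf3*, the factor that TRIF signalling activates by phosphorylation, was at 10.3, 11.4 and 10.99 FPKM in the control and 10.4, 10.7 and 11.1 FPKM in the LPS libraries (−0.03 ± 0.05, FDR = 0.686), and *Irf1* (0.14) also did not pass.

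Most genes of antigen presentation that could be tested rose. Among 20 MHC class I genes, all tested, 14 rose and 1 fell (median 0.39). The peptide loading protein *Tapbp* rose from 64.4, 63.4 and 61.8 FPKM to 99.7, 96.0 and 107 FPKM (0.67 ± 0.05, FDR = 2.73e-17). *H2-D1* (from 182, 180.0 and 183 FPKM to 279, 271 and 282 FPKM, 0.60 ± 0.02, FDR = 2.73e-17), *H2-T22* (0.97) and the proteasome activator *Psme2* (0.73) share 12.8, 34.5 and 28.3% of their sequence with other genes, so their values are uncertain. In the class II, costimulation and checkpoint list, 10 of 14 tested (21 listed) rose and none fell (median 0.39; 8 and 1 with total library size). *Cd40*, which receives help from T cells, rose from 2.41, 2.70 and 2.76 FPKM to 12.7, 13.003 and 12.96 FPKM (2.28 ± 0.06, FDR = 1.49e-23), and *Cd274*, the checkpoint ligand PD-L1, from 5.65, 5.93 and 6.36 FPKM to 19.6, 18.7 and 19.8 FPKM (1.69 ± 0.05, FDR = 4.81e-23). *Slamf7* rose from 0.555, 0.577 and 0.659 FPKM to 1.54, 1.34 and 1.25 FPKM (1.19 ± 0.11, FDR = 5.79e-07). All 3 were apart in every library. The class II genes *H2-Aa*, *H2-Ab1* and *H2-Eb1* and their activator *Ciita* were too low to test.

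The transcripts of the inducible nitric oxide synthase and of an arginine transporter rose, while their list moved both ways. It counts 10 higher and 7 lower of 18 tested (19 listed), with a median of 0.22, and 8 higher and 8 lower (median 0.13) with total library size. *Nos2*, the inducible nitric oxide synthase, rose from 33.1, 29.2 and 33.7 FPKM to 175, 153 and 164 FPKM (2.35 ± 0.08, FDR = 9.55e-30). The arginine transporter *Slc7a2* rose from 1, 7 and 4 counts to 39, 52 and 66 counts (3.84 ± 0.49, FDR = 1.14e-11; 4.49 without control replicate 2). *Odc1*, which makes putrescine, rose from 302, 228 and 233 FPKM to 1026, 942 and 938 FPKM (1.92 ± 0.14, FDR = 2.42e-25, 24.3% shared sequence). *Srm*, spermidine synthase, fell from 104, 99.2 and 100.03 FPKM to 80.8, 77.6 and 83.9 FPKM (−0.33 ± 0.04, FDR = 1.2e-07). *Ass1* (2.09) and *Amd1* (−0.62) share 38.6 and 78.1% of their sequence and are uncertain.

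In the list of prostaglandin and leukotriene synthesis 5 of 13 tested (16 listed) rose and 5 fell (median −0.23, or −0.14 without LPS replicate 2). *Ptgs2*, which encodes the inducible cyclooxygenase COX-2, rose from 17.99, 16.7 and 16.4 FPKM to 359, 328 and 291 FPKM (4.25 ± 0.10, FDR = 5.39e-36), and the prostaglandin E synthase *Ptges* from 1.36, 1.23 and 1.28 FPKM to 4.21, 4.38 and 4.41 FPKM (1.74 ± 0.05, FDR = 6.23e-16). *Alox5*, the 5-lipoxygenase that starts leukotriene synthesis, fell from 1.76, 1.88 and 1.5997 FPKM to 0.480, 0.356 and 0.375 FPKM (−2.12 ± 0.14, FDR = 1.13e-10), and its partner *Alox5ap* from 50.4, 48.9 and 50.7 FPKM to 36.1, 37.1 and 37.0 FPKM (−0.45 ± 0.02, FDR = 7.36e-09). *Hpgds*, the prostaglandin D synthase of immune cells, fell from 20.2, 21.7 and 21.0 FPKM to 14.6, 15.9 and 15.04 FPKM (−0.47 ± 0.05, FDR = 2.08e-10). None of the 5 overlapped, and the constitutive cyclooxygenase *Ptgs1* did not pass (−0.32).

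Around the TCA cycle, 1 enzyme rose steeply and most others fell slightly. *Acod1*, which makes itaconate from the cycle intermediate aconitate, rose from 65.3, 48.8 and 47.2 FPKM to 946, 888 and 883 FPKM (4.07 ± 0.15, FDR = 1.07e-33). The whole list of 26, all tested, had 3 higher and 15 lower genes (median −0.12), or 1 and 19 (median −0.21) with total library size. *Mdh1* fell from 89.4, 95.8 and 94.2 FPKM to 69.0, 64.3 and 67.5 FPKM (−0.48 ± 0.04, FDR = 7.94e-13), *Idh2* from 52.1, 49.6 and 51.7 FPKM to 36.1, 37.2 and 39.6 FPKM (−0.45 ± 0.05, FDR = 3.53e-10), *Fh1* from 40.4, 38.4 and 40.3 FPKM to 29.1, 29.8 and 30.3 FPKM (−0.42 ± 0.03, FDR = 9.01e-11) and *Idh3a* from 33.4, 33.6 and 33.3 FPKM to 24.7, 25.4 and 26.4 FPKM (−0.40 ± 0.03, FDR = 2.23e-10), dehydrogenases and a hydratase of organic acids.

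Most respiratory chain genes fell, by small amounts. Of 57 nuclear genes, all tested, 39 fell and 1 rose (median −0.16), or 48 and 0 (median −0.25) with total library size. The complex I subunits *Ndufs8* (from 141, 146 and 145 FPKM to 105, 98.4 and 106 FPKM, −0.49 ± 0.04, FDR = 7.91e-13), *Ndufs7* (from 45.5, 48.3 and 48.6 FPKM to 33.6, 31.1 and 39.9 FPKM, −0.45 ± 0.11, FDR = 1.66e-07), *Ndufb3* (from 73.1, 75.3 and 73.2 FPKM to 54.6, 56.9 and 51.9 FPKM, −0.45 ± 0.04, FDR = 4.3e-07) and *Ndufa5* (from 39.1, 38.9 and 38.3 FPKM to 28.0, 32.7 and 29.2 FPKM, −0.38 ± 0.07, FDR = 0.000138) fell most. Of 13 genes encoded in the mitochondrion, 12 were tested, 8 fell and none rose (median −0.20). *mt-Nd1* fell from 2780.4, 3000.5 and 2930.4 FPKM to 1906, 2191 and 1955 FPKM (−0.53 ± 0.07, FDR = 3.89e-14) and *mt-Nd2* from 1231, 1348 and 1321 FPKM to 978, 1096 and 979 FPKM (−0.36 ± 0.07, FDR = 1.89e-10), again without overlap. *mt-Nd3* (−1.10) and *mt-Co2* (−1.07) share 98.0% and all of their sequence with other genes and are uncertain, and *mt-Co2* stood at −0.36 without control replicate 1. Across chromosome MT, 14 of 24 tested genes fell and none rose, which moves with the lower mitochondrial share given above. The part of RNA quality in this was not tested.

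Genes of glycolysis and the hypoxia response moved both ways. In the glycolysis and hypoxia list 15 of 28 tested (29 listed) rose and 4 fell (median 0.28), or 14 and 7 with total library size. The glucose transporter *Slc2a1* rose from 82.1, 77.1 and 74.1 FPKM to 202, 183 and 207 FPKM (1.34 ± 0.07, FDR = 9.36e-25), and *Pfkfb3*, which makes an activator of phosphofructokinase, from 5.49, 4.55 and 5.41 FPKM to 12.7, 12.0 and 10.8 FPKM (1.19 ± 0.11, FDR = 6.19e-17). *Adm*, the hypoxia-inducible hormone adrenomedullin, had 4, 9 and 15 counts against 45, 21 and 24 (1.85 ± 0.52, FDR = 8.17e-05). The lactate transporter *Slc16a1* fell from 52.1, 54.3 and 51.5 FPKM to 32.0, 34.7 and 35.6 FPKM (−0.63 ± 0.05, FDR = 9.34e-15). In these 4 genes no library overlapped. The later enzymes *Tpi1* (−0.04) and *Ldha* (0.02) did not pass, nor did *Hif1a* (0.03). *Gapdh* was read at 9.13, 8.51 and 8.28 FPKM in the control and 47.1, 11.9 and 12.5 FPKM in the LPS libraries, where LPS replicate 1 stands alone. Its log2FC of 1.45 was 0.50 without that library and no longer passed (FDR = 0.567). It did not pass either with DESeq2 (FDR = 0.148) or without control replicate 1 (1.49, FDR = 0.0671), control replicate 2 (1.44, FDR = 0.0797) or control replicate 3 (1.43, FDR = 0.0833), and 24.7% of its sequence is shared.

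Among pentose phosphate and NADPH enzymes, 3 of 10 tested (11 listed) rose and 5 fell (median −0.10), or 3 and 6 (median −0.19) with total library size. In the oxidative branch, which yields NADPH, *G6pdx* (from 110.2, 109 and 103 FPKM to 179, 174 and 174 FPKM, 0.70 ± 0.03, FDR = 1.28e-19) and *Pgd* (from 98.2, 94.5 and 94.1 FPKM to 114, 111 and 112 FPKM, 0.22 ± 0.02, FDR = 4.48e-08) rose, while *Pgls*, the step between them, fell (−0.39, 18.9% shared sequence). In the branch that recycles carbon, *Rpia* (from 7.93, 7.09 and 7.54 FPKM to 5.23, 4.96 and 4.92 FPKM, −0.59 ± 0.05, FDR = 8.48e-09), *Tkt* (from 68.1, 68.8 and 65.8 FPKM to 59.1, 52.8 and 61.6 FPKM, −0.23 ± 0.07, FDR = 1.06e-05) and *Taldo1* (from 145, 157 and 148 FPKM to 129, 129.5 and 141 FPKM, −0.18 ± 0.05, FDR = 0.000204) fell. The groups were apart in all of these genes.

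Antioxidant and electrophile response genes rose in part. Of 35 tested among 37 listed genes, 20 rose, 4 past the stricter limit, and 6 fell (median 0.27). *Hmox1*, haem oxygenase 1, rose from 202, 187 and 192 FPKM to 1024, 948 and 967 FPKM (2.33 ± 0.05, FDR = 1.35e-33). *Slc7a11*, the cystine importer that feeds glutathione synthesis, rose from 9.56, 9.24 and 9.70 FPKM to 41.3, 42.0 and 39.4 FPKM (2.10 ± 0.04, FDR = 1.33e-31), and *Maff*, a small MAF partner of Nrf2, from 2.06, 1.51 and 1.73 FPKM to 9.14, 7.17 and 8.87 FPKM (2.24 ± 0.17, FDR = 4.68e-18). *Gclm*, a subunit of the rate-limiting enzyme of glutathione synthesis, rose from 17.6, 17.6 and 18.6 FPKM to 34.2, 33.8 and 35.1 FPKM (0.93 ± 0.03, FDR = 6.2e-21), but its catalytic partner *Gclc* did not pass (0.02). *Gstp3* had 0, 0 and 2 counts against 40, 31 and 22, a ratio of 52.4 (95% counting interval 14.1 to 439). Without control replicate 3, its other controls had no count and the fold was at least 11.4, and without control replicate 2 the ratio was 34.8 (9.37 to 292). *Gstp1* was at 2.06, 1.55 and 3.02 FPKM in the control and 3.27, 3.64 and 3.48 FPKM in the LPS libraries (0.64 ± 0.27, FDR = 0.0124), with 33.7% shared sequence, and did not pass without control replicate 2 (0.43, FDR = 0.115). *Cbr3* overlapped between the groups, 7.79, 7.64 and 6.18 FPKM in the control and 7.46, 7.39 and 7.14 FPKM in the LPS libraries (0.02, FDR = 0.901), and *Gsta3* held at most 3 counts in any of the 6 libraries.

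The glutathione peroxidases *Gpx1* (from 34.0, 35.2 and 32.0 FPKM to 25.9, 26.5 and 19.99 FPKM, −0.49 ± 0.14, FDR = 1.82e-06) and *Gpx4* (−0.41, 34.7% shared sequence) fell. So did *Nfe2l2*, which encodes Nrf2 itself (from 39.4, 39.0 and 37.7 FPKM to 33.4, 30.5 and 30.3 FPKM, −0.31 ± 0.05, FDR = 1.52e-07), and the transferase *Gsto1* (from 24.3, 25.8 and 28.6 FPKM to 20, 20.2 and 22.6 FPKM, −0.34 ± 0.09, FDR = 4.21e-05). The phagocyte NADPH oxidase, which makes superoxide, had 5 higher genes and 1 lower of 7 listed and tested (median 0.36), or 5 and 2 with total library size. Its catalytic subunit *Cybb* rose from 89.4, 95.6 and 99.0 FPKM to 194, 195 and 189 FPKM (1.02 ± 0.05, FDR = 1.29e-23), the cytosolic *Ncf4* from 82.4, 85.3 and 78.1 FPKM to 105, 102 and 111 FPKM (0.36 ± 0.05, FDR = 2.45e-09) and the GTPase *Rac2* from 168, 175 and 172 FPKM to 233, 213 and 218 FPKM (0.36 ± 0.04, FDR = 2.11e-11). *Cyba*, the membrane partner of *Cybb*, was at 509, 555 and 511 FPKM in the control and 485, 484 and 537 FPKM in the LPS libraries (−0.07). Of these genes, only *Cyba* did not pass.

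Most iron genes rose. In this list 13 of 19, all tested, rose and 3 fell (median 0.33). *Lcn2*, which withholds bacterial siderophores, rose from 17.3, 12.5 and 13.7 FPKM to 99.8, 91.4 and 88.5 FPKM (2.68 ± 0.15, FDR = 5.32e-27). The metal transporters *Slc11a2* (from 21.2, 21.4 and 20.7 FPKM to 42.8, 41.1 and 44.0 FPKM, 1.01 ± 0.03, FDR = 3.99e-22) and *Slc11a1* (from 44.5, 49.3 and 49.8 FPKM to 94.7, 94.4 and 98.0 FPKM, 0.99 ± 0.05, FDR = 3.24e-21) and *Blvrb*, a biliverdin reductase (from 22.1, 20.4 and 21.5 FPKM to 40.1, 37.4 and 40.7 FPKM, 0.88 ± 0.05, FDR = 2.41e-17), rose without overlap. The ferritin genes were among the 10 highest with LPS, *Fth1* going from 1885, 1838 and 1846 FPKM to 2697, 2550.3 and 2606 FPKM (0.49 ± 0.02, FDR = 1.82e-17) and *Ftl1* from 1721, 1938 and 1750.0 FPKM to 2283, 2179.9 and 2383 FPKM (0.33 ± 0.06, FDR = 5.74e-08, 50.9% shared sequence). *Hfe*, of the pathway that sets systemic iron, fell from 2.79, 2.77 and 2.70 FPKM to 1.67, 1.25 and 1.53 FPKM (−0.90 ± 0.12, FDR = 2.69e-06).

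At the cell surface, 10 of 22 tested scavenger receptors and C-type lectins (26 listed) rose and 8 fell. Their median of 0.40 was 0.23 without control replicate 2 and 0.25 without LPS replicate 1. *Siglec1*, a sialic acid receptor, rose from 7.99, 7.07 and 6.73 FPKM to 41.5, 35.7 and 37.6 FPKM (2.39 ± 0.10, FDR = 9.55e-30). The lectin *Clec4n* (Dectin-2) rose from 2.25, 3.93 and 3.08 FPKM to 16.8, 15.7 and 13.8 FPKM (2.31 ± 0.24, FDR = 3.45e-16), and *Cd36*, a receptor of oxidized lipids, from 9.42, 11.6 and 10.7 FPKM to 37.6, 34.5 and 31.9 FPKM (1.71 ± 0.11, FDR = 8.33e-24). *Trem2*, a lipid receptor that dampens inflammation, fell from 52.1, 56.0 and 50.7 FPKM to 16.4, 15.95 and 18.1 FPKM (−1.66 ± 0.07, FDR = 5.56e-26), and the amplifying receptor *Trem1* rose from 8, 4 and 7 counts to 18, 24 and 22 counts (1.90 ± 0.26, FDR = 0.000369). *Clec4a3* fell from 14.8, 16.8 and 17.3 FPKM to 9.54, 7.87 and 8.12 FPKM (−0.95 ± 0.11, FDR = 8.95e-10). No library overlapped in these 6 genes.

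Fc receptors, integrins and adhesion genes counted 11 higher and 3 lower of 20 tested (23 listed, median 0.31). *Itgal* of LFA-1 rose from 1.38, 1.21 and 1.72 FPKM to 4.35, 3.90 and 4.66 FPKM (1.57 ± 0.16, FDR = 1.67e-14), and the fibronectin receptor chain *Itga5* from 34.4, 32.1 and 33.2 FPKM to 82.8, 76.6 and 83.3 FPKM (1.28 ± 0.05, FDR = 5.91e-25). *Itga4* of VLA-4 fell from 30.4, 30.0 and 31.8 FPKM to 10.3, 12.1 and 11.3 FPKM (−1.46 ± 0.07, FDR = 1.56e-24). The inhibitory *Fcgr2b* rose from 7.07, 7.05 and 6.76 FPKM to 14.9, 13.2 and 13.3 FPKM (0.98 ± 0.06, FDR = 1.48e-17) while the activating *Fcgr3* fell from 7.99, 8.20 and 7.19 FPKM to 4.58, 4.17 and 5.44 FPKM (−0.73 ± 0.12, FDR = 6.31e-06), all 5 without overlap. Complement counted 4 higher and 2 lower of 10 tested (15 listed, median 0.34). *C3*, the centre of the cascade, rose from 1.32, 1.32 and 1.06 FPKM to 3.82, 3.53 and 3.86 FPKM (1.59 ± 0.11, FDR = 7.43e-15), and the anaphylatoxin receptor *C5ar1* from 10.2, 8.19 and 8.59 FPKM to 28.2, 25.3 and 27.5 FPKM (1.58 ± 0.11, FDR = 1.8e-21).

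In the matrix protease and plasminogen list 11 of 18 tested (24 listed) rose, 7 past the stricter limit, and 3 fell (median 0.74), or 10 and 5 with total library size. *Mmp9*, a gelatinase, rose from 10.4, 9.76 and 9.60 FPKM to 62.7, 56.2 and 56.8 FPKM (2.56 ± 0.06, FDR = 4.79e-31). The collagenase *Mmp13* had 0, 2 and 0 counts against 27, 16 and 27 with a ratio of 39.4 (95% counting interval 10.5 to 332), and the matrix protein thrombospondin 1, *Thbs1*, 0, 0 and 3 against 55, 39 and 45 with a ratio of 52.2 (95% counting interval 17.5 to 256). *Mmp13* had no control count left without control replicate 2, at least 8.71-fold, and its ratio was 25.7 (6.85 to 216) without control replicate 3. *Thbs1* had none left without control replicate 3, at least 17.0-fold, and its ratio was 34.7 (11.6 to 170.0) without control replicate 2. The sheddases *Adam17*, which releases TNF (from 30.7, 30.1 and 31.8 FPKM to 26.0, 26.2 and 25.8 FPKM, −0.26 ± 0.02, FDR = 4.44e-07), and *Adam10* (from 35.2, 34.2 and 34.9 FPKM to 29.7, 31.4 and 29.3 FPKM, −0.21 ± 0.03, FDR = 7.16e-05) fell. *Spp1* (osteopontin) exceeded every other gene with LPS in FPKM and rose from 4117, 3856 and 3814 FPKM to 6704, 6214 and 5938 FPKM (0.67 ± 0.06, FDR = 9.02e-19, 11.6% shared sequence). *Plau*, urokinase, did not pass (−0.03).

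The inflammasome list had 9 higher and 2 lower genes of 15 tested (16 listed, median 0.32, or 0.19 without LPS replicate 3). The sensor *Nlrp3* rose from 23.4, 20.5 and 20.5 FPKM to 57.5, 54.8 and 58.0 FPKM (1.40 ± 0.07, FDR = 6.08e-25), and *Casp4*, which binds cytosolic LPS, from 11.5, 10.4 and 10.7 FPKM to 17.8, 18.2 and 17.1 FPKM (0.70 ± 0.05, FDR = 2.59e-11). *Il18* rose from 5.31, 4.64 and 3.96 FPKM to 9.01, 6.82 and 7.94 FPKM (0.77 ± 0.16, FDR = 0.000399). *Nek7*, a cofactor of NLRP3, fell from 12.0, 12.9 and 12.4 FPKM to 9.78, 10.4 and 9.31 FPKM (−0.35 ± 0.06, FDR = 1.07e-06). *Pycard*, the adaptor ASC, was too low to test. Among 27 regulators of cell death, all tested, 15 rose and 6 fell (median 0.22), or 14 and 8 (median 0.13) with total library size. The death receptor *Fas* rose from 2.09, 2.50 and 1.87 FPKM to 8.97, 7.801 and 7.60 FPKM (1.91 ± 0.14, FDR = 4.41e-15) and *Gadd45b* from 21.7, 21.6 and 22.05 FPKM to 57.1, 55.1 and 62.5 FPKM (1.41 ± 0.05, FDR = 1.92e-21). The apoptotic *Bid* fell from 32.5, 31.0 and 29.7 FPKM to 23.01, 21.8 and 22.8 FPKM (−0.47 ± 0.04, FDR = 3.85e-11). The survival genes *Bcl2a1a* (3.18) and *Bcl2a1d* (1.17) share 69.0 and 79.5% of their sequence with copies, so how reads split between them is uncertain.

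Listed transcription factors moved both ways. In the immediate early and stress list 14 of 28 tested (31 listed) rose and 5 fell (median 0.18), or 13 and 7 (median 0.10) with total library size. *Myc* rose from 7.19, 8.52 and 6.40 FPKM to 27.4, 27.4 and 30.9 FPKM (1.95 ± 0.13, FDR = 8.72e-23) and *Fosl1*, an AP-1 subunit, from 3.08, 2.20 and 2.30 FPKM to 8.79, 7.71 and 7.53 FPKM (1.66 ± 0.16, FDR = 6.18e-14). *Fos* itself fell from 20.7, 21.2 and 21.0 FPKM to 13.6, 12.997 and 13.2 FPKM (−0.67 ± 0.02, FDR = 8.64e-09), as did *Egr3* (from 1.64, 1.55 and 1.57 FPKM to 0.703, 0.553 and 0.540 FPKM, −1.41 ± 0.12, FDR = 7.53e-08) and *Cebpa*, which sets myeloid fate (from 3.24, 2.91 and 3.50 FPKM to 1.28, 1.56 and 1.64 FPKM, −1.11 ± 0.13, FDR = 4.06e-07). In all 5 the groups were apart. Of Krüppel-like factors and nuclear receptors, 8 of 20 tested (22 listed) rose and 6 fell (median 0.15, or 0.08 without LPS replicate 3). With total library size 7 rose and 7 fell (median 0.06). *Ppard* rose from 2.05, 1.98 and 2.43 FPKM to 5.87, 5.64 and 5.55 FPKM (1.39 ± 0.09, FDR = 2.21e-18) while *Pparg* fell from 0.816, 1.10 and 1.26 FPKM to 0.405, 0.590 and 0.592 FPKM (−1.01 ± 0.24, FDR = 0.00234). *Klf6* rose from 40.6, 42.3 and 41.3 FPKM to 65.8, 65.3 and 62.1 FPKM (0.63 ± 0.03, FDR = 1.2e-16), and *Klf10* fell from 7.65, 8.99 and 8.04 FPKM to 3.86, 3.92 and 4.40 FPKM (−1.03 ± 0.09, FDR = 2.93e-12). Clock genes counted 7 higher and 1 lower of 16 tested (17 listed, median 0.24), or 6 and 2 (median 0.15) with total library size. The other 8 did not pass in the main fit, so the share called was near the 48.1% of all genes tested. *Cry2* rose from 2.62, 2.11 and 2.22 FPKM to 4.29, 3.94 and 4.04 FPKM (0.82 ± 0.10, FDR = 5.45e-09). *Per1* rose from 10.1, 9.42 and 9.17 FPKM to 15.3, 14.4 and 13.7 FPKM (0.59 ± 0.06, FDR = 6.54e-12). *Nr1d2* fell from 4.91, 5.38 and 5.22 FPKM to 3.28, 3.82 and 3.46 FPKM (−0.56 ± 0.08, FDR = 1.17e-06). Over all genes to which the authors assign a transcription factor family, 225 of 827 tested rose and 154 fell. Of 1171 long noncoding RNAs tested, 199 rose and 71 fell, where 24.0% of all tested genes rose and 24.1% fell.

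Of 17 tested among 18 listed macrophage identity genes, 8 rose and 8 fell (median 0.12, or 0.07 without LPS replicate 3), or 6 and 8 (median 0.03) with total library size. *Adgre1* (F4/80) rose from 17.1, 19.0 and 19.0 FPKM to 51.2, 50.6 and 50.1 FPKM (1.45 ± 0.05, FDR = 1.63e-23), and *Cebpb* from 48.0, 52.0 and 50.4 FPKM to 84.4, 76.0 and 89.7 FPKM (0.73 ± 0.08, FDR = 2.44e-05). *Laptm5* fell from 160.2, 161 and 157 FPKM to 101, 96.4 and 102 FPKM (−0.68 ± 0.03, FDR = 1.25e-17). The transcription factor gene *Maf* went from 1, 2 and 3 counts to 30, 40 and 29 counts, a ratio of 18.6 (95% counting interval 8.24 to 51.9). In the list of resident and alternatively activated macrophage genes only 11 of 22 could be tested, 3 rose and 5 fell (median −0.44), or 2 and 6 with total library size. Beside *Cx3cr1* and *Trem2*, *Gas6*, a bridge to apoptotic cells, fell from 7.36, 7.61 and 7.66 FPKM to 4.28, 2.81 and 3.27 FPKM (−1.14 ± 0.17, FDR = 1.41e-09). Osteoclast genes counted 3 higher and 5 lower of 12 tested (13 listed). Their median of −0.08 was −0.05 without LPS replicate 2 and −0.17 with total library size. *Tnfrsf11a*, which encodes RANK, fell from 10.6, 10.6 and 10.5 FPKM to 8.31, 9.11 and 8.42 FPKM (−0.30 ± 0.04, FDR = 2.18e-05), and *Nfatc1*, the master factor of osteoclasts, from 30.9, 31.4 and 33.6 FPKM to 26.1, 27.1 and 27.0 FPKM (−0.27 ± 0.04, FDR = 1.24e-06). The groups did not overlap in any gene named here.

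Most genes of fatty acid synthesis and LXR targets fell. Of 26 in this list, all tested, 18 fell and 6 rose (median −0.21). *Scd1*, the stearoyl-CoA desaturase, fell from 46.6, 47.7 and 47.2 FPKM to 22.4, 21.7 and 21.7 FPKM (−1.11 ± 0.02, FDR = 1.06e-21), the desaturase *Fads2* from 94.0, 92.5 and 92.9 FPKM to 53.6, 53.5 and 55.4 FPKM (−0.79 ± 0.02, FDR = 5.18e-20) and the cholesterol exporter *Abcg1* from 16.4, 18.7 and 17.4 FPKM to 9.39, 10.1 and 10.7 FPKM (−0.81 ± 0.08, FDR = 4.51e-15). The lipid carrier *Fabp4* rose from 29.5, 32.6 and 28.9 FPKM to 67.2, 67.3 and 63.7 FPKM (1.12 ± 0.06, FDR = 1.32e-19), and *Npc2*, which moves cholesterol out of lysosomes, from 78.4, 78.4 and 78.5 FPKM to 128, 127 and 126 FPKM (0.69 ± 0.01, FDR = 7.03e-19). The groups did not overlap in any of the 5. Of 24 tested genes of sterol synthesis and uptake (26 listed), 13 fell, 2 rose and 9 did not pass (median −0.15). With total library size 18 fell and 1 rose (median −0.24). *Stard4*, a sterol carrier, fell from 12.9, 12.2 and 12.2 FPKM to 9.91, 8.69 and 9.74 FPKM (−0.41 ± 0.06, FDR = 7.73e-07).

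Of 32 tested among 33 listed lysosomal genes, 9 rose, 11 fell and 12 did not pass, but 7 were higher and 19 lower with total library size. The median of −0.01 was −0.10 by that scaling, changed sign without control replicate 2 (0.01) and without LPS replicate 2 (0.01), and was −0.02 without control replicate 1. Among its proteases, *Ctsl* rose from 107, 105 and 98.3 FPKM to 169, 162 and 163 FPKM (0.66 ± 0.04, FDR = 1.7e-19), *Lgmn* fell from 169, 169.6 and 166 FPKM to 83.7, 86.8 and 84.1 FPKM (−0.99 ± 0.02, FDR = 5.46e-23), and *Ctsd* was at 895, 954 and 916 FPKM in the control and 932, 903 and 929 FPKM in the LPS libraries (−0.01, 32.4% shared sequence). Among factors that drive lysosomal genes, *Mitf* (from 8.94, 9.53 and 8.63 FPKM to 11.7, 12.7 and 13.3 FPKM, 0.47 ± 0.07, FDR = 1.69e-09) and *Tfe3* (from 9.36, 8.42 and 8.77 FPKM to 12.5, 11.8 and 11.9 FPKM, 0.44 ± 0.05, FDR = 8.91e-10) rose and *Tfeb* (from 1.90, 1.98 and 2.39 FPKM to 1.51, 1.302 and 1.37 FPKM, −0.59 ± 0.12, FDR = 0.000207) fell. Chaperones counted 9 higher and 12 lower of 30 tested (31 listed), or 8 and 16 with total library size. Their median of −0.05 was −0.14 by that scaling, −0.07 without control replicate 2 and −0.03 without control replicate 3. *Ero1a*, an oxidase of the endoplasmic reticulum, rose from 32.1, 32.7 and 32.9 FPKM to 67.8, 63.2 and 61.3 FPKM (0.97 ± 0.04, FDR = 1.21e-19), and *Edem1*, which sorts misfolded proteins for degradation, fell from 81.8, 81.5 and 81.3 FPKM to 59.2, 58.7 and 59.2 FPKM (−0.47 ± 0.0039, FDR = 1.7e-15). *Xbp1* fell from 63.0, 57.8 and 63.9 FPKM to 50.1, 50.7 and 53.01 FPKM (−0.27 ± 0.05, FDR = 1.47e-06). The groups were apart in these genes other than *Ctsd*.

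Most ATF4 targets and aminoacyl-tRNA synthetases rose. In the list of ATF4 targets, which answer amino acid shortage and stress, 23 of 25 tested (28 listed) rose and none fell (median 0.67). Of all genes tested, 24.0% rose. *Ddit4*, an inhibitor of mTORC1, rose from 2.97, 3.11 and 2.93 FPKM to 21.6, 18.9 and 21.4 FPKM (2.77 ± 0.06, FDR = 7.81e-22). *Sesn2*, a leucine sensor, rose from 8.90, 9.38 and 9.60 FPKM to 27.9, 25.1 and 27.1 FPKM (1.51 ± 0.05, FDR = 3.44e-23), and *Chac1*, which degrades glutathione, from 8.99, 8.47 and 8.50 FPKM to 22.3, 21.9 and 24.0 FPKM (1.38 ± 0.05, FDR = 4.97e-18). The transporter *Slc1a4* rose from 2.95, 3.36 and 3.04 FPKM to 6.47, 6.76 and 7.25 FPKM (1.12 ± 0.07, FDR = 1.05e-12). Of 20 aminoacyl-tRNA synthetases, all tested, 15 rose and 1 fell (median 0.27). *Sars* rose from 101, 96.8 and 97.0 FPKM to 167, 155 and 154 FPKM (0.68 ± 0.04, FDR = 4.59e-19), *Nars* from 112, 112 and 114 FPKM to 185, 178 and 175 FPKM (0.66 ± 0.02, FDR = 8.93e-20) and *Cars* from 18.5, 19.4 and 18.7 FPKM to 31.8, 29.7 and 29.4 FPKM (0.68 ± 0.04, FDR = 3.82e-16), while *Vars* fell from 62.6, 61.0 and 61.8 FPKM to 45.9, 44.8 and 49.3 FPKM (−0.41 ± 0.04, FDR = 6.2e-11). The 3 and 3 libraries were apart in each.

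Every tested gene of one division list fell. All 36 genes of mitosis and G2/M were tested and all fell, 6 of them past the stricter limit, at log2FCs of −2.44 to −1.09 (median −1.61). Of all genes tested, 24.1% fell, and the members of this list were chosen with earlier results of these data known. *Plk1*, the kinase that drives entry into and passage through mitosis, fell from 44.5, 41.8 and 41.1 FPKM to 7.52, 7.73 and 8.36 FPKM (−2.44 ± 0.06, FDR = 5.78e-27). *Cdc20*, the activator of the anaphase-promoting complex, fell from 60.1, 61.4 and 59.5 FPKM to 11.8, 12.9 and 11.5 FPKM (−2.33 ± 0.05, FDR = 3.39e-27, 10.4% shared sequence). The centromere proteins *Cenpa* (from 15.5, 16.7 and 15.2 FPKM to 2.70, 2.84 and 3.53 FPKM, −2.39 ± 0.13, FDR = 6.08e-25) and *Cenpf* (from 6.61, 6.98 and 6.32 FPKM to 1.18, 1.48 and 1.19 FPKM, −2.38 ± 0.12, FDR = 4.94e-25) fell as far. In each of the 36 the lowest control library lay above the highest LPS library. Of DNA replication and G1/S genes, 33 of 40, all tested, fell and 1 rose (median −0.43). *Tk1*, thymidine kinase, fell from 17.8, 17.2 and 17.2 FPKM to 7.84, 8.33 and 10.1 FPKM (−0.998 ± 0.11, FDR = 4.46e-16), the clamp loader subunit *Rfc5* from 14.9, 13.8 and 13.99 FPKM to 7.99, 6.77 and 8.30 FPKM (−0.90 ± 0.09, FDR = 3.04e-12) and the ribonucleotide reductase subunit *Rrm1* from 24.6, 24.3 and 24.2 FPKM to 14.03, 14.8 and 14.7 FPKM (−0.76 ± 0.03, FDR = 2.56e-19). *E2f1* (0.10), *Ccne1* (0.00) and *Cdt1* (−0.01) did not pass, and *Ccne2* rose from 10.3, 11.05 and 10.1 FPKM to 11.5, 14.3 and 12.7 FPKM (0.28 ± 0.10, FDR = 0.00449) but not without LPS replicate 2 (0.21, FDR = 0.0534).

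Among cyclin D genes, CDK inhibitors and p53 targets, 9 of 21 tested (24 listed) rose and 7 fell, and their median of −0.01 is within the spread of the libraries and ran from −0.05 without control replicate 1 to 0.06 without LPS replicate 1. With total library size it was −0.10, with 9 higher and 9 lower. *Cdkn1a*, the CDK inhibitor p21, rose from 43.8, 38.5 and 38.9 FPKM to 109, 101 and 107 FPKM (1.38 ± 0.07, FDR = 1.19e-24), and *Mdm2*, the ubiquitin ligase of p53, from 34.1, 33.3 and 33.7 FPKM to 90.6, 87.3 and 86.3 FPKM (1.38 ± 0.02, FDR = 4.61e-27). *Btg2*, an antiproliferative p53 target, rose from 6.41, 5.28 and 5.57 FPKM to 12.6, 10.6 and 10.9 FPKM (0.97 ± 0.11, FDR = 1.4e-11). *Ccnd1*, the cyclin that carries cells through G1, fell from 78.8, 67.8 and 70.2 FPKM to 39.7, 42.9 and 43.6 FPKM (−0.79 ± 0.08, FDR = 9.03e-17), and *Cdkn2c*, the inhibitor p18, from 13.7, 14.99 and 13.5 FPKM to 4.35, 4.33 and 5.65 FPKM (−1.56 ± 0.13, FDR = 5.84e-16). All 5 were apart in every library. *Cdkn1b* (0.14) and *Rb1* (−0.01) did not pass.

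**Figure D4:**
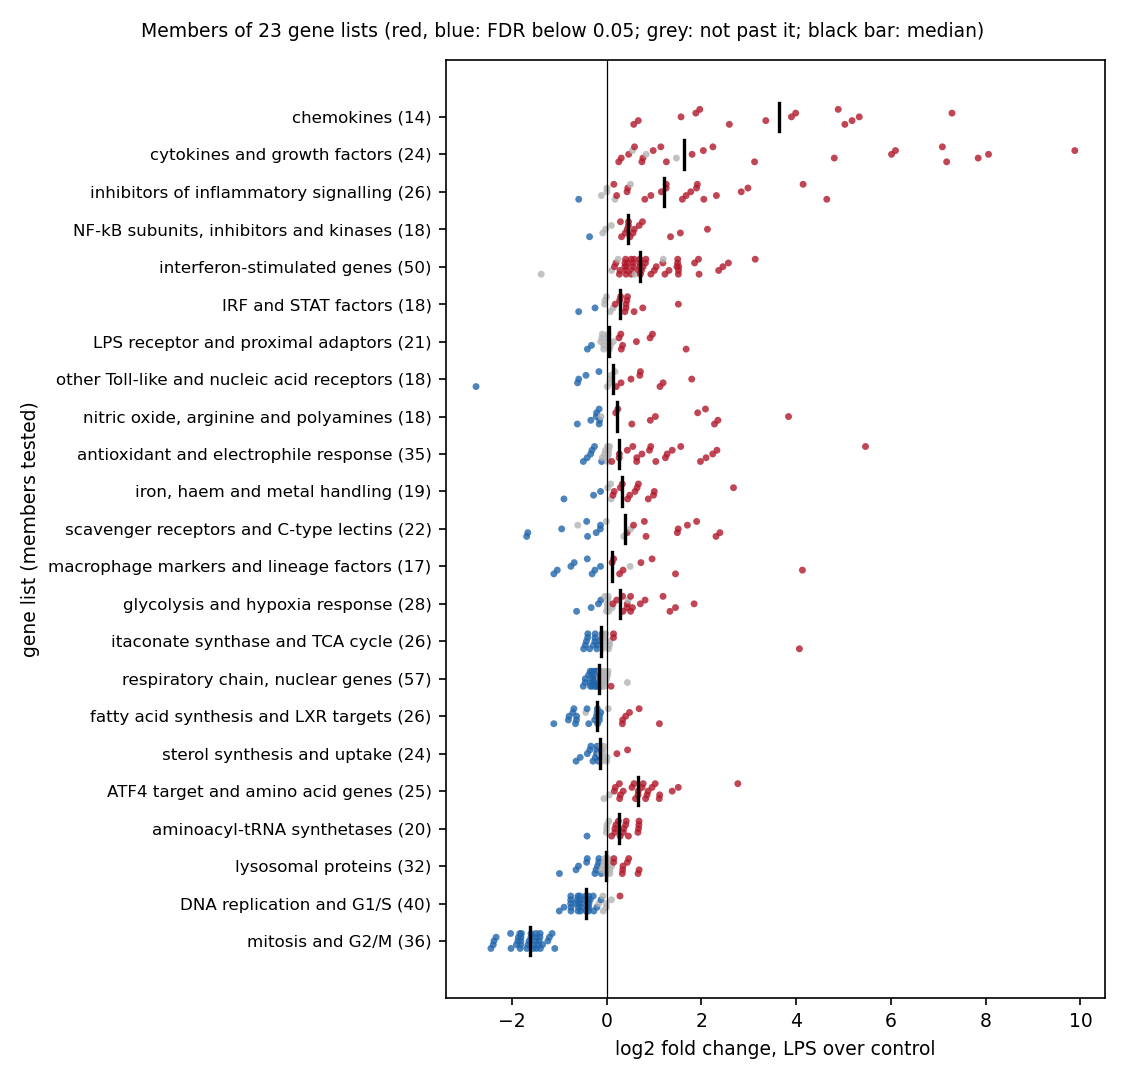
Log2FC of LPS over control (x axis) for each tested member of 23 gene lists (y axis, number tested in brackets), with a black bar at each list's median. Red and blue points passed an FDR of 0.05 upward and downward, grey points did not. Medians run from 3.63 for chemokines to −1.61 for mitosis and G2/M; that of the LPS receptor list (0.06) turns to −0.03 with total library size, and that of the lysosome (−0.01) to −0.10.

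Of the 10 genes with the highest FPKM under LPS, those not yet described are *Actb*, *Rplp1*, *Eef1a1* and *mt-Co1*. *Actb*, beta-actin, rose from 1431, 1369 and 1283 FPKM to 1992, 1904 and 1915 FPKM (0.50 ± 0.05, FDR = 1.71e-14), without overlap. The ribosomal *Rplp1* (from 1744, 1840.0 and 1704 FPKM to 1776, 1741 and 1956 FPKM, log2FC 0.04), the elongation factor *Eef1a1* (from 3840.2, 3776 and 3708 FPKM to 3911, 3806 and 3776 FPKM, 0.01) and *mt-Co1* (from 5639, 6008 and 6064 FPKM to 5596, 6106 and 5518 FPKM, −0.05) overlapped and did not pass, and 60, 39.4 and 51.1% of their sequence is shared.

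Promoters were read for genes that moved together, as the 250 bases before each RefSeq gene start of GRCm38.p6. Of 13688 tested symbols, 9560 matched 12150 promoters, and of the 184 higher and 40 lower genes 121 and 32 matched 153 and 34. Both strands were searched for the NF-kB motif, for the interferon response element ISRE (GAAA, any 2 bases, then GAAA), for AP-1 (TGANTCA), for C/EBP (TTGCNNAA) and for the TATA box (TATAAA). The motif CCAAT and the CHR element TTTGAA, known from promoters of mitotic genes, were added after values had been seen. A match is a description of letters, and no factor's binding was measured. The NF-kB motif occurred in 8.50% of promoters of the higher genes and 2.94% of the lower ones, against 4.41% of all tested and 3.90% of all 32851 promoters of this length. It occurred in 4 of 8 chemokine promoters and 7 of 20 of the NF-kB list (35.0%). ISRE occurred in 22 of 49 promoters of interferon-stimulated genes (44.9%), against 2.78% of all tested and 2.98% of all promoters, and in 9.15% of those of the higher and 8.82% of the lower genes. C/EBP occurred in 21.6% of promoters of the higher and 14.7% of the lower genes (all tested 7.64%, all promoters 9.56%), AP-1 in 13.1% and 8.82% (4.55% and 6.75%) and TATA in 15.7% and 11.8% (6.47% and 12.4%). CCAAT occurred in 27 of 34 mitosis and G2/M promoters (79.4%) and 64.7% of the lower genes, against 27.5% of the higher, 35.5% of all tested and 33.8% of all promoters. It also occurred in 21 of 37 G1/S promoters (56.8%) and in 13 of 26 of the ATF4 list (50%), most of whose tested genes rose. CHR occurred in 12 of these 34 (35.3%) and in 26.5% of promoters of the lower genes, against 17.0% of the higher, 22.4% of interferon-stimulated genes, 11.1% of all tested and 16% of all promoters.

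The following promoters show these motifs for genes that rose and for a pair that fell. *Cxcl2* (chr5:90903649-90903898, plus strand) holds overlapping NF-kB matches 97 to 87 bases before the start, *Il6* (chr5:30012864-30013113, plus) an NF-kB match at 44 to 35 and a C/EBP match at 128 to 121, and *Nfkbia* (chr12:55492648-55492897, minus) an NF-kB match at 29 to 20. *Rsad2* (chr12:26456453-26456702, minus) holds ISRE at 120 to 111. *Cdc20* (chr4:118437344-118437593, minus) holds CCAAT at 53 to 49 and 8 to 4 with CHR at 18 to 13, and *Aspm* (chr1:139454523-139454772, plus) holds 3 CCAAT matches, written ATTGG on this strand. Capitals mark the matches named here and no others.
Cxcl2: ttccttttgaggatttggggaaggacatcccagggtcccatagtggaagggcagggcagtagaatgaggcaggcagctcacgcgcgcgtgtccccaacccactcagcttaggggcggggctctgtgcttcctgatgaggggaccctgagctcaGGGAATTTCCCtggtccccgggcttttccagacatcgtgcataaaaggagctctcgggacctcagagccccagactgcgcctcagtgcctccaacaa
Il6: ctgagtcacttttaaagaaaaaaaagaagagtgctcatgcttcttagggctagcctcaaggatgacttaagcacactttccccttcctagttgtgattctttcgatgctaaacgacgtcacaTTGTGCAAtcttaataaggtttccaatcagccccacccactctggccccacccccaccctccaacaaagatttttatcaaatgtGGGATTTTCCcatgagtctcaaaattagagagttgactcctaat
Nfkbia: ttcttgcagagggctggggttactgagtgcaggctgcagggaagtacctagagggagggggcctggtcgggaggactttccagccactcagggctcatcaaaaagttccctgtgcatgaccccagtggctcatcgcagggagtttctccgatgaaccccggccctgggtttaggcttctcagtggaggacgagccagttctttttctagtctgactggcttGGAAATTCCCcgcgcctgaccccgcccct
Rsad2: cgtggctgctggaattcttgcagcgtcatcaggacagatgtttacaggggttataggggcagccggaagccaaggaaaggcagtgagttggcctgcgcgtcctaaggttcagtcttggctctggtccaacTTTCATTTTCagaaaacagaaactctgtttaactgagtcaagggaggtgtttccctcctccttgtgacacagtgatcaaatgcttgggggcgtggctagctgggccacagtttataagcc
Cdc20: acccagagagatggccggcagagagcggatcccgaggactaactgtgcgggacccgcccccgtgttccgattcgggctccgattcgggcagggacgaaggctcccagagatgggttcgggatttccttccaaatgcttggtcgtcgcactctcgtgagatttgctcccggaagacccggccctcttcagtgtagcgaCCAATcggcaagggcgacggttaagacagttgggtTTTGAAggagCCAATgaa
Aspm: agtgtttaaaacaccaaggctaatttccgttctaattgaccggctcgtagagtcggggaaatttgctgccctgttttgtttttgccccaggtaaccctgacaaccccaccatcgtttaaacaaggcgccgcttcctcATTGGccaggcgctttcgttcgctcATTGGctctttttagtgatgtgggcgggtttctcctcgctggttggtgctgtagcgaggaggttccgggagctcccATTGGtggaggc

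PIC, which enters through TLR3 and cytosolic RNA sensors, gave a direct point of comparison at the same 12 h. With an FDR below 0.05 and a |log2FC| above 1 between the stimuli, 62 genes were higher with LPS and 190 lower (0.453% and 1.39% of those tested). With total library size these were 119 and 144, a share of higher genes of 45.2% in place of 24.6%, as that scaling moved the median of all genes from 0.01 to 0.14. The 2 doses were not matched, so these values compare the treatments as given. Of the 184 genes raised most by LPS, 52 were lower with LPS than with PIC and 2 higher (median −0.72). *Cxcl10* was at 5.78, 5.81 and 4.97 FPKM with LPS and 34.6, 37.6 and 37.5 FPKM with PIC (log2FC of LPS over PIC −2.72, FDR = 1.12e-24), and *Il6* at 4.12, 4.39 and 3.83 FPKM and 17.98, 18.9 and 19.2 FPKM (−2.17, FDR = 1.43e-18). *Ccl5* (−2.05), *Lif* (−2.70) and *Serpinb2* (−2.63) were likewise lower with LPS, and of the lists 12 of 24 cytokines and 10 of 50 interferon-stimulated genes were. *Cx3cr1*, lowered by LPS, was lower still with PIC, 1.19, 1.17 and 1.16 against 0.537, 0.367 and 0.301 FPKM (1.58, FDR = 3.35e-08).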

How the data were processed

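Gene counts of 18 libraries were deposited as raw whole numbers, which the authors made with featureCounts 1.5.0-p3 after alignment with HISAT2 2.0.5, per the submitters' processing notes, which also name StringTie 1.3.3b. The authors also deposited FPKM, which scale the same counts by the gene length given in the file, by library depth and by a further factor per library. This factor was 0.9511, 0.9458 and 0.9428 in control replicates 1 to 3 and 1.0149, 1.005 and 1.0141 in LPS replicates 1 to 3. In PIC replicates 1 to 3 it was 1.1119, 1.1156 and 1.1132. It is the same for all genes of a library, and its source was not tested. The notes name the builds GRCm38 and mm39 without saying which gave the positions, and whether the counting used strand is not given in the sources used here. Columns were assigned to samples by their names.

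Counts were tested with edgeR 4.0.16 in R 4.3.3 (quasi-likelihood test, TMM, 1 coefficient per group over all 18 libraries). Of 56748 genes, 27701 had a count and 13691 passed filterByExpr. A gene nearly unread in the control could pass this filter only through libraries where it is high, which favours increases in counts and medians of lists. FPKM served for levels and for the limma alternatives. The SE of a log2FC comes from the spread of replicate log2 CPM (prior count 2), and ± is this SE throughout. The tests were tried on simulated data, but no outcome is reported here, so their calibration is not shown. The share of a gene's sequence found elsewhere is the percentage of 50-base words of its annotated transcripts that occur in another gene, and values above 10% make a gene uncertain. Alternatives used DESeq2 1.42.0, limma 3.58.1, other size factors, filters and thresholds, the replicate number as a block, and each library left out. Intervals came from scipy 1.17.1, tables from pandas 2.3.3 with numpy 2.4.6, and plots from matplotlib 3.10.9, all in Python 3.11.15.

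Genes were named by rule: the 15 highest and 15 lowest log2FCs of genes whose groups did not overlap, whose mean reached 50 counts and whose FDR was below 0.01, without predicted genes and pseudogenes; up to 4 each way per list past an FDR of 0.05; every LPS receptor gene and every gene in the study's table; list members that did not pass, as values; the 10 highest FPKM with LPS; and up to 5 genes at or under 3 counts in every control library with the highest CPM with LPS. Some genes that the rule names are not reported here, and others are marked where they stand. The 47 lists hold 1051 symbols, of which 931 were tested. Members and lists were chosen with earlier results of these data known. No value of a list was tested as a set.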

Additional observations from a re-analysis of the deposited data

How the results depend on the processing

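Among 950 named and listed genes, no call turned to the other direction under any setting run for single genes. These settings were DESeq2, other size factors, the replicate block, each library left out and a fit of the 2 conditions only (937 genes). The limma, filter and threshold alternatives were run for the numbers of genes only. Of 727 called, 102 lost the call under at least 1 setting, 39 of them with total library size and 83 without some library, and 84 of those not called gained one. The medians of 43 lists kept their sign or were too close to 0 to be called, but 32 moved by over 1 SD of the libraries with total library size and 13 without some library.

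The 6589 genes changed with LPS became 1022 (676 higher, 346 lower) where a |log2FC| above 1 was also asked. Of the 224 genes past the strict limit with LPS, DESeq2 shared 215 and total library size 211. Their number was 116 (96 and 20) among genes with a mean of at least 50 counts, which tests fewer genes, 61 (56 and 5) with limma on log2(FPKM + 1), 148 (22 lower) with limma on log2(FPKM + 0.1) and 880 (577 and 303) with the limit lowered to a |log2FC| of 1. Of the 116, 113 were among the 224. When the 224 themselves were counted, 84 higher and 23 lower genes had a mean of at least 50, so the 2 means are not the same. A pseudocount shrinks the fold of low genes by construction. Of the 252 genes that differ between LPS and PIC, 62 were higher with LPS. These were 39 with DESeq2, 119 with total library size, 14 of 97 (83 lower) at a mean of at least 50 counts, 1 of 83 (82 lower) with limma on log2(FPKM + 1) and 26 with log2(FPKM + 0.1). Where no reason is given, the cause was not tested.

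Without each library in turn, there were 5887 to 6236 genes changed with LPS, 212 to 247 genes past the strict limit with LPS and 220 to 269 genes that differ between LPS and PIC. With the replicate number as a replicate block, these were 6609, 223 and 253, and among the 950 only *Tnfrsf1a* lost its call, and *Vsir* and *Mmp19* gained one. Deviations of control and LPS libraries of the same number correlated at 0.0464, −0.0059 and −0.0787, and those of different numbers at −0.0738 to 0.0752. No sign of pairing by number was seen, but 3 libraries per group cannot exclude it. Totals of 14423390 to 15932183 counts leave genes at a few counts measured with wide intervals.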
